A study of Arabidopsis thaliana with 8 samples.

Results

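The genes described here encode 43 known regulators of FLC, the MADS-box repressor of flowering in Arabidopsis thaliana, out of 33557 genes with a value in every library. They were taken by locus code as genes known to act on FLC, with no measured value in the rule: 8 genes of the autonomous pathway, 6 of the PAF1 complex, 4 histone methyltransferases, 6 Polycomb genes, 5 genes of the VIN3 family with VRN1 and LHP1, 2 histone demethylases, 3 SWR1 genes, 5 genes of H2B ubiquitination and FACT, and 4 genes of the FRI complex. RNA was sequenced from whole seedlings 7 days old, raised on plates at 22 °C with 16 h of light and 8 h of darkness, without a vernalizing cold period beyond the stratification of the seed. Wild-type Col-0 plants were set beside plants carrying dek3-2, plants carrying dek4-2 and plants carrying both alleles, abbreviated dd-2, with 2 libraries of each genotype that the submitters call biological replicates. All 4 share the Col-0 background, and the labels name 1 allele of each DEK gene without describing its lesion, so a result cannot be separated from that allele. By its design text the study asked which genes change expression when DEK3 and DEK4, 2 genes for chromatin proteins of the DEK family, are mutated. Values are FPKM, fragment counts divided by gene length and library size and so a level per length, so genes can be set side by side; with n = 2 both library values are given in place of a mean.

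FLC is controlled mainly through its chromatin. The FRI complex, the PAF1 complex, H3K4 and H3K36 methyltransferases, H2B ubiquitination and the SWR1 complex, which places the histone variant H2A.Z, promote its transcription, whereas the autonomous pathway and the Polycomb machinery with the VIN3 family hold it down. Col-0 carries a non-functional FRI allele, which makes its FLC level low and the plant early flowering.

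The libraries held between 18504 and 19283 genes at 1 FPKM or more and summed to between 839267 and 873796 FPKM. Shoot tissue was visible in photosynthesis mRNAs (summed FPKM of 3 shoot markers between 10850 and 15250, almost wholly RBCS1A). The 5 root markers summed to between 12.7 and 29.0 FPKM, while 3 floral organ markers summed to at most 0.755 FPKM. Seed maturation mRNAs summed to 774 FPKM in dek3-2 replicate 1 and 80.0 in dd-2 replicate 2, against 1.45 to 12.4 in the other 6 libraries. In bulk tissue, fewer cells of a type and less RNA per cell cannot be told apart. Both mutated genes followed the labels in all 8 libraries. DEK3 lay at 48.3 and 70.2 FPKM in Col-0, 16.7 and 13.3 in dek3-2, 47.4 and 80.7 in dek4-2 and 19.9 and 17.5 in dd-2. DEK4 lay at 23.7 and 35.2 FPKM in Col-0, 37.95 and 27.01 in dek3-2, 10.3 and 18.4 in dek4-2 and 16.3 and 15.4 in dd-2. Neither difference passed the test over all genes (limma, adjusted p = 0.461 for DEK3 in dek3-2 and 1 for DEK4 in dek4-2), although the libraries of mutant and Col-0 did not overlap for either gene.

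FLC (AT5G10140) stood at 8.40 and 10.45 FPKM in Col-0, 7.83 and 5.15 in dek3-2, 5.83 and 5.10 in dek4-2 and 3.78 and 3.39 in dd-2. Both dd-2 libraries were the lowest of the 8, as for 7.28% of all tested genes. Every mutant library was below both Col-0 libraries, as for 2.76% of all tested genes. In log2(FPKM + 1), the fitted differences from Col-0 were -0.49 in dek3-2 and -0.68 in dek4-2. Neither FLC difference passed at an adjusted p under 0.05 (limma). The dd-2 difference from Col-0 was -1.18 on the scale of log2(FPKM + 1) with an adjusted p of 0.0584 (limma), and that of its relative MAF4 was -0.79 (adjusted p = 0.0642). MAF5, another FLC relative, fell by 1.27 (adjusted p = 0.0265). The regulators were compared beside these values.

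**Figure D1:**
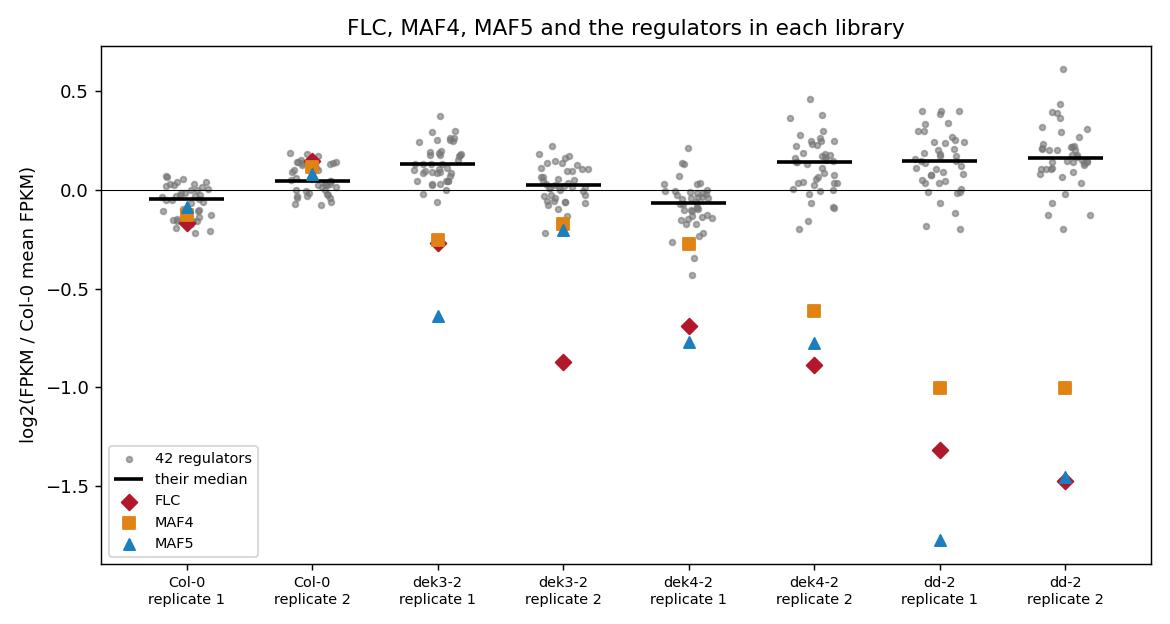
Level of each of the 42 measured regulators (grey points), of FLC, MAF4 and MAF5 in each of the 8 libraries, as log2 of FPKM over the mean of the 2 Col-0 libraries; black bars are the medians of the regulators. Single regulators ran from -0.43 to 0.61 over the 8 libraries and from -0.20 to 0.61 in dd-2, with medians between -0.07 and 0.16, and FLC lay at -1.32 and -1.48 in the dd-2 libraries.

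Transcripts of 42 of the 43 regulators were present at a mean of at least 1 FPKM and were tested. None of the 42 passed in dd-2, dek3-2 or dek4-2 against Col-0 (limma on log2(FPKM + 1), adjusted p under 0.05 over 19017 genes), where 0.252%, 0.0421% and 0.021% of all tested genes passed. None passed in dd-2 against either single mutant (0.0263% and 0.0421% of all genes), in dek4-2 against dek3-2 (0.0263%), or in the interaction of both mutations (0.0158%). At an unadjusted p under 0.05, 4 of 42 members were found in dd-2 (9.52%, against 18.6% of all genes), 0 in dek3-2 (against 3.44%) and 1 in dek4-2 (2.38%, against 1.97%). Over the processing alternatives, all fitted with limma, these counts ran from 0 to 8 in dd-2 and from 0 to 1 in dek4-2, and the count stayed 0 in dek3-2. In dd-2 against dek3-2, dd-2 against dek4-2, dek4-2 against dek3-2 and the interaction, 2, 3, 0 and 0 members had an unadjusted p under 0.05, against 10.6%, 12.4%, 2.73% and 3.64% of all genes. Without dek3-2 replicate 1 or dd-2 replicate 2, the libraries with seed mRNAs, the members passing the adjusted threshold remained 0 in all 7 comparisons, and those at an unadjusted p under 0.05 in dd-2 numbered 3 and 0.

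A missed threshold does not show that the levels were alike, so the intervals matter more. The 95% confidence interval of the difference lay inside 1.5-fold either way, on the scale of FPKM + 1, for 36 of 42 regulators in dd-2, 41 in dek3-2 and 42 in dek4-2, against 74.7%, 85% and 86.8% of all tested genes. The 6 regulators outside that bound in dd-2 were PIE1, SDG8, ATX1, ATXR7, HUB1 and HUB2, each of which reached beyond it on the higher side. Taken over the 8 libraries, the highest FPKM of a regulator was a median of 1.27 times its lowest, against 1.33 for all tested genes. This ratio ran from 1.07 for FLK to 1.78 for ATXR7, and it was under 1.5 for 39 of 42 regulators and for 70.1% of all genes.

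**Figure D2:**
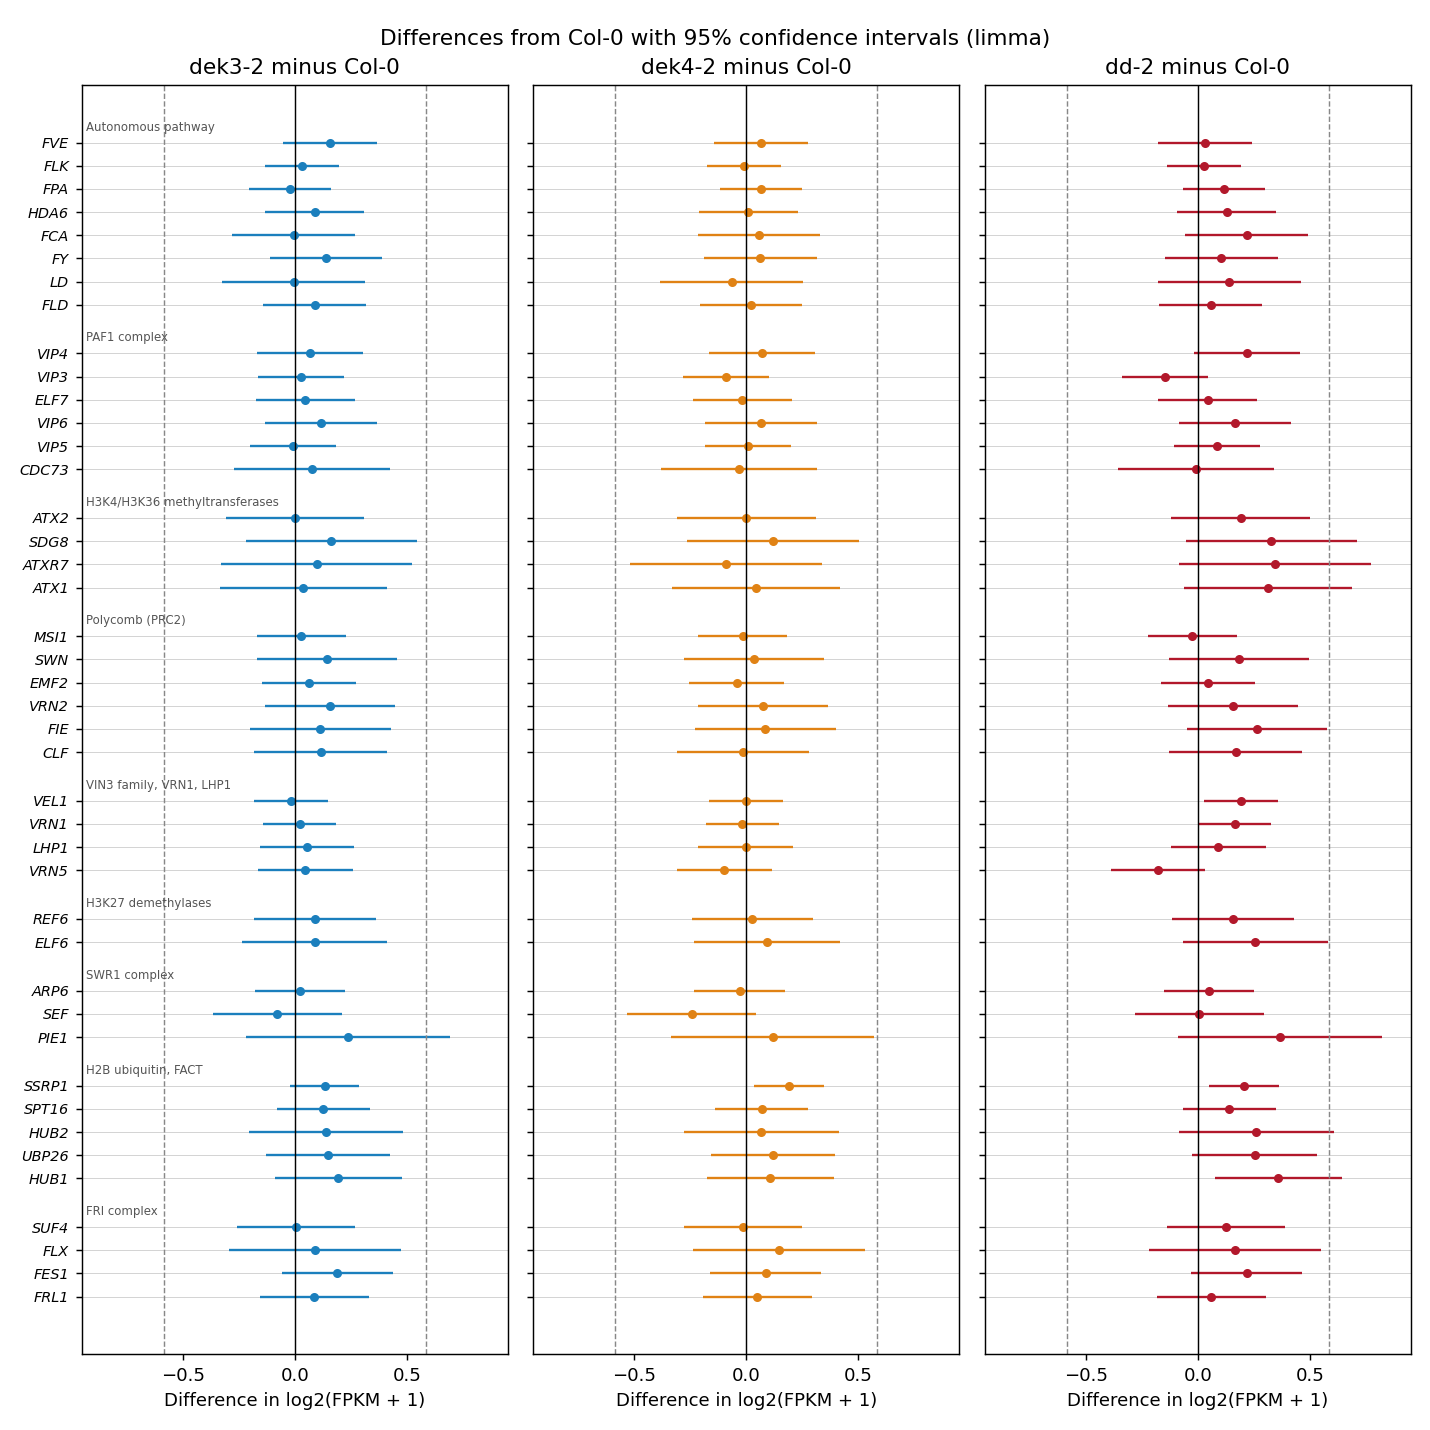
Difference of each mutant from Col-0 in log2(FPKM + 1) for the 42 tested regulators, grouped by complex, with 95% confidence intervals from limma; dashed lines mark 1.5-fold. In dd-2, 38 of 42 points lay above 0, and 6 intervals crossed the upper dashed line.

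As a set the regulators were expressed near the middle of the transcriptome. Their median level was 12.5 FPKM against 13.75 for all tested genes, and 18 of 42 lay above the median of all genes in Col-0. FVE at 39.2 FPKM and VEL1 at 39.0 had the highest means, and ATX1 at 3.12 had the lowest of the tested members. VIN3 (AT5G57380), the PHD-finger gene that prolonged cold induces, was the 1 member below the minimum. It was listed at 0.29 and 0.19 FPKM in Col-0, 0.21 and 0.13 in dek3-2, 0.12 and 0.34 in dek4-2 and 0.26 and 0.32 in dd-2. These values stand for an estimated 7.97 to 21.2 fragments a library, the groups overlap, and no difference was detectable at this depth.

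**Figure D3:**
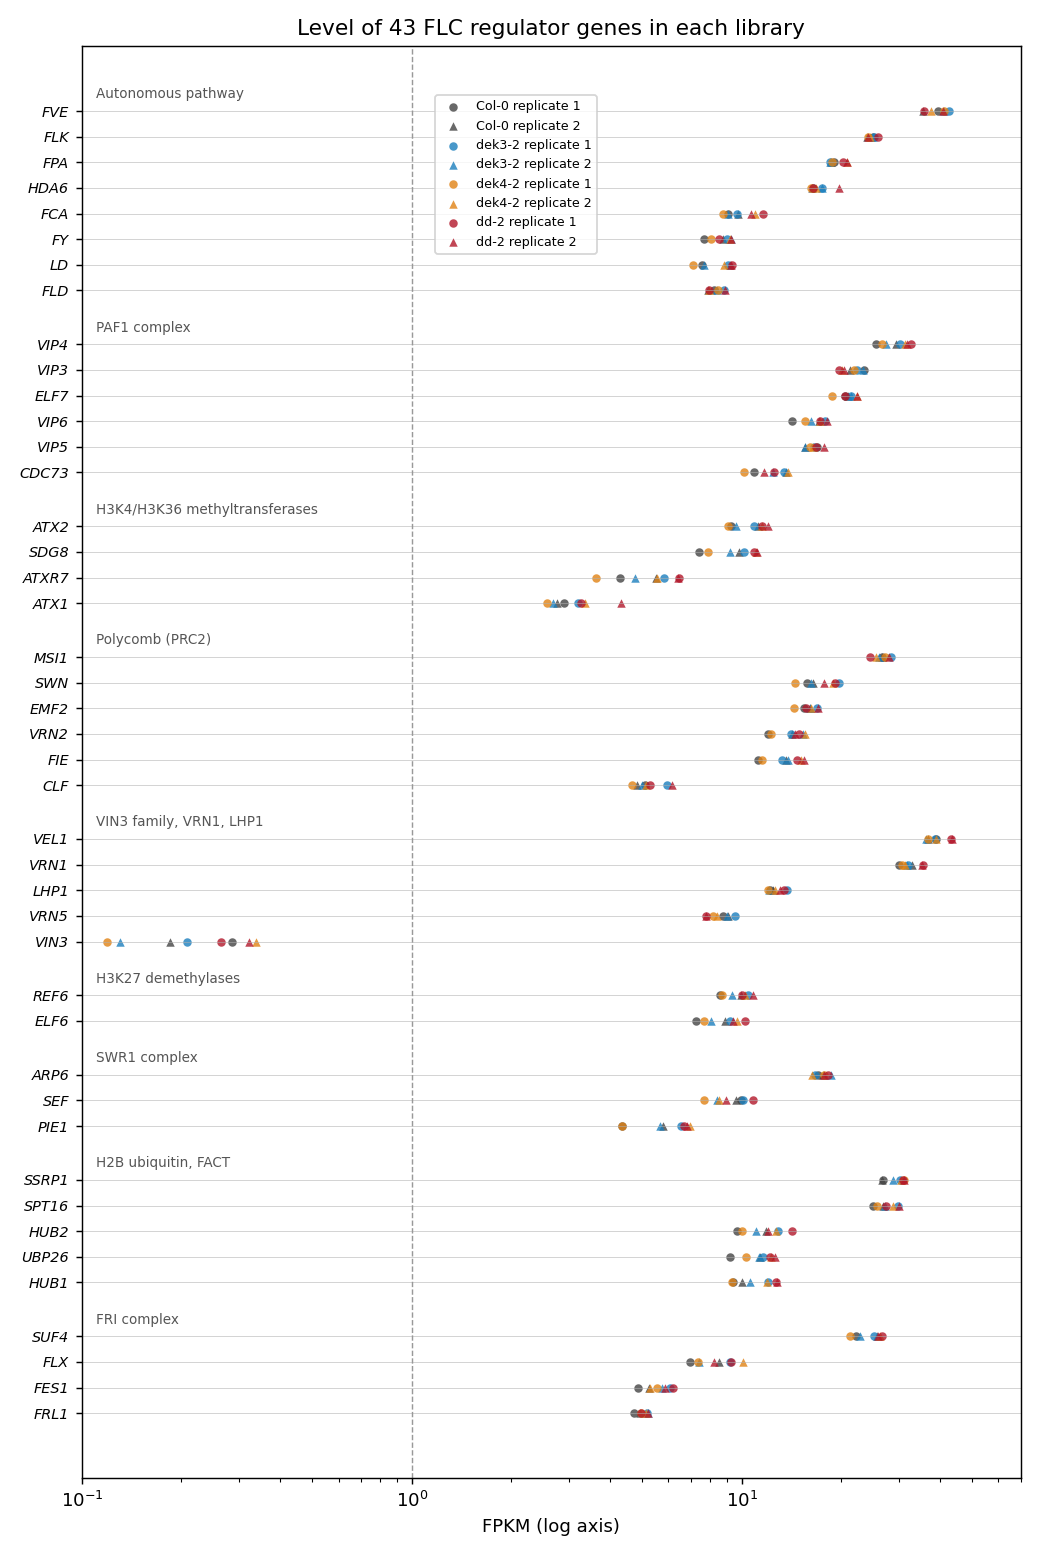
FPKM (log axis) of the 43 regulators in the 8 libraries, grouped by complex; colours are genotypes, and circles and triangles are replicates 1 and 2. The dashed line marks 1 FPKM, below which VIN3 alone lies; the other rows lie between 2.56 and 43.5 FPKM with the genotypes close together.

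The autonomous pathway lowers FLC through RNA-binding and 3' end processing proteins and through histone deacetylation and demethylation. None of its 8 members passed in any comparison, and their dd-2 differences ran from 0.03 to 0.22 with a median of 0.11, which was 0.06 with the trend with transcript length removed in each library. FVE (AT2G19520, TAIR10 chromosome 2, 8455936 to 8459525), a WD-repeat protein of histone deacetylase complexes, stood at 39.3 and 35.4 FPKM in Col-0, 42.5 and 41.1 in dek3-2, 40.9 and 37.5 in dek4-2 and 35.8 and 40.8 in dd-2. Both dek3-2 libraries were above both Col-0 libraries, but the difference of 0.16 (SE 0.0917, 95% interval -0.05 to 0.37) had an adjusted p of 1 in limma. FLD, a homologue of histone H3K4 demethylases, was the lowest of the pathway at 8.22 and 7.89 FPKM in Col-0, 8.82 and 8.45 in dek3-2, 8.45 and 7.94 in dek4-2 and 7.98 and 8.89 in dd-2. Its groups overlapped in dd-2, and FVE exceeded it by 4.48 to 4.86 times in every library.

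The RNA-binding protein FLK varied the least of all members, between 24.05 and 25.8 FPKM. FCA, which with the polyadenylation factor FY promotes proximal 3' end formation of antisense RNA at FLC, stood at 9.09 and 9.73 FPKM in Col-0 and at 11.6 and 10.7 in dd-2, a difference of 0.22 (95% interval -0.06 to 0.49, adjusted p = 0.348). FY stood at 7.70 and 8.76 in Col-0 and 8.53 and 9.30 in dd-2, so its groups overlapped. FPA, a second promoter of proximal polyadenylation, lay between 18.5 and 20.85 FPKM, LD, a homeodomain protein, between 7.14 and 9.37, and the histone deacetylase HDA6 between 16.2 and 19.8. FPA lies on a locus that the files merge with a gene on the opposite strand, so its value is uncertain.

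The PAF1 complex travels with RNA polymerase II and is needed for histone marks of transcription at FLC. None of its 6 genes passed, and their dd-2 differences ran from -0.15 to 0.22 with all 6 intervals inside 1.5-fold. VIP4, the LEO1 homologue and the most abundant subunit mRNA, stood at 25.5 and 29.3 FPKM in Col-0, 30.1 and 27.4 in dek3-2, 26.6 and 31.2 in dek4-2 and 32.5 and 31.6 in dd-2. CDC73, the least abundant, stood at 10.9 and 13.6 in Col-0, 13.4 and 12.4 in dek3-2, 10.2 and 13.8 in dek4-2 and 12.5 and 11.7 in dd-2. VIP4 was 2.16 to 2.71 times CDC73 in the 8 libraries, and in dd-2 the former lay above all other libraries while the latter fell within the range of Col-0.

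VIP3 (AT4G29830, chromosome 4, merged locus 14597661 to 14601055), a WD-repeat subunit, was 1 of 2 regulators (4.76% of 42, against 15.3% of all genes) with both dd-2 libraries below both Col-0 libraries. It stood at 23.45 and 21.4 FPKM in Col-0, 22.4 and 23.3 in dek3-2, 21.9 and 20.1 in dek4-2 and 19.8 and 20.5 in dd-2. The difference was -0.15 in dd-2 (95% interval -0.34 to 0.04, adjusted p = 0.362) and -0.09 in dek4-2 (SE 0.0833, adjusted p = 1), and the locus is merged with a gene of the opposite strand. ELF7, the PAF1 homologue, VIP5, the RTF1 homologue, and VIP6, the CTR9 homologue, had dd-2 differences of 0.04, 0.09 and 0.17.

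The 4 methyltransferases had a median difference of 0.32 in dd-2 as deposited, the highest of the classes, and 1 of 4 had its interval inside 1.5-fold. With the trend with transcript length removed in each library the median was 0.19, below the 0.20 of the H2B ubiquitination and FACT genes. ATX1 and ATX2 are trithorax-type H3K4 methyltransferases, ATXR7 is an H3K4 methyltransferase of the SET1 type, and SDG8 deposits H3K36 methylation. ATX1 stood at 2.88 and 2.76 FPKM in Col-0, 3.19 and 2.68 in dek3-2, 2.56 and 3.35 in dek4-2 and 3.25 and 4.31 in dd-2. ATX2 stood at 9.31 and 11.2 in Col-0, 10.9 and 9.59 in dek3-2, 9.07 and 11.5 in dek4-2 and 11.6 and 12.04 in dd-2. Both dd-2 libraries exceeded both Col-0 libraries for each of the 4 genes, as they did for 38% of all tested genes and for 61.05% of those of 3 kb or more, a length that all 4 reach. No gene passed, and the adjusted p values in dd-2 were 0.320 or higher.

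ATXR7 (AT5G42400) was the most variable of the 42 tested regulators, at 4.27 and 5.50 FPKM in Col-0, 5.83 and 4.75 in dek3-2, 3.63 and 5.53 in dek4-2 and 6.46 and 6.42 in dd-2. Its dd-2 difference from Col-0 was 0.34 (SE 0.187, 95% interval -0.08 to 0.77, adjusted p = 0.343) and that from dek4-2 was 0.44 (adjusted p = 0.400). SDG8 stood at 7.45 and 9.78 in Col-0 and 10.9 and 11.1 in dd-2. The replicates of Col-0 and of dek4-2 lay apart for both genes, with replicate 1 low in each genotype.

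Polycomb repressive complex 2 writes H3K27 methylation, the silencing mark of FLC. The 6 Polycomb genes had a median dd-2 difference of 0.16, none passed, and all 6 intervals lay inside 1.5-fold in each of the 3 mutants. MSI1, the histone-binding subunit, stood at 26.6 and 26.7 FPKM in Col-0, 28.3 and 26.2 in dek3-2, 27.2 and 25.5 in dek4-2 and 24.6 and 27.9 in dd-2. CLF, a catalytic subunit, was the lowest, at 5.09 and 4.81 in Col-0, 5.95 and 4.98 in dek3-2, 4.65 and 5.14 in dek4-2 and 5.27 and 6.14 in dd-2. The alternative catalytic subunit SWN was 2.89 to 3.68 times CLF in every library, with group means between 3.26 and 3.40.

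EMF2 and VRN2, the alternative Su(z)12-type subunits, had a ratio of 1.04 to 1.28 in the 8 libraries. FIE, the WD40 subunit required by all forms of the complex, stood at 11.2 and 13.7 FPKM in Col-0 and 14.7 and 15.5 in dd-2, the largest dd-2 difference of the class at 0.26 (95% interval -0.05 to 0.58, adjusted p = 0.325). FIE and MSI1 both lie on loci merged with a gene of the opposite strand.

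The VIN3 family and VRN1 consolidate silencing of FLC after cold, and LHP1 is the chromodomain protein that reads H3K27 methylation. In this class members lay on both sides of Col-0 in dd-2. VEL1 (AT4G30200, chromosome 4, 14786633 to 14790501), a PHD-finger relative of VIN3, stood at 38.85 and 36.7 FPKM in Col-0, 38.5 and 36.2 in dek3-2, 36.7 and 38.7 in dek4-2 and 42.95 and 43.5 in dd-2. Both dd-2 libraries exceeded the other 6, which overlapped one another. The dd-2 difference was 0.19 (SE 0.0720, 95% interval 0.03 to 0.36) against Col-0, with an adjusted p of 0.216 in limma and a range of 0.174 to 0.477 over the alternatives. Against dek3-2 it was 0.21 (adjusted p = 0.373) and against dek4-2 0.19 (adjusted p = 0.361).

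VRN5 (AT3G24440), the other PHD-finger relative here, stood at 8.79 and 9.10 FPKM in Col-0, 9.54 and 9.03 in dek3-2, 8.16 and 8.44 in dek4-2 and 7.80 and 7.79 in dd-2. Both dd-2 libraries were below the other 6, with a difference from Col-0 of -0.18 (95% interval -0.39 to 0.03, adjusted p = 0.328) and from dek3-2 of -0.22 (adjusted p = 0.441). VEL1 was 4.01 to 4.59 times VRN5 in the libraries outside dd-2 and 5.51 to 5.59 times in dd-2. That separation follows from the opposite positions of both genes in dd-2 and is not a separate observation. VRN1, a DNA-binding protein with B3 domains, stood at 30.0 and 32.8 FPKM in Col-0 and 35.35 and 35.3 in dd-2, above the other 6 libraries, with a difference of 0.17 (95% interval 0.00 to 0.33, adjusted p = 0.264). LHP1 lay between 11.98 and 13.7 FPKM, and its dd-2 difference was 0.09.

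Among all members, 7 had both dd-2 libraries above the other 6, namely LD, VIP4, ATX2, ATXR7, VEL1, VRN1 and HUB1, where 17.1% of all tested genes did. VRN5 was the 1 member with both below, where 7.28% of all genes were. The share of members above the other 6, 16.7%, was near that background.

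H3K27 demethylases oppose Polycomb silencing, and REF6 and ELF6 are both Jumonji-domain members of this kind. REF6 stood at 8.60 and 9.92 FPKM in Col-0, 10.5 and 9.37 in dek3-2, 8.71 and 10.2 in dek4-2 and 10.02 and 10.8 in dd-2. ELF6 stood at 7.25 and 8.90 in Col-0, 9.22 and 8.06 in dek3-2, 7.70 and 9.68 in dek4-2 and 10.2 and 9.40 in dd-2. Both genes had dd-2 libraries above Col-0, as had 61.05% of all genes of 3 kb or more, with differences of 0.16 and 0.26 and adjusted p values of 0.479 and 0.349. With the length trend removed the differences were 0.05 and 0.15.

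The 3 SWR1 genes gave no call. ARP6, an actin-related subunit, stood at 17.1 and 17.7 FPKM in Col-0, 16.7 and 18.7 in dek3-2, 17.7 and 16.3 in dek4-2 and 18.3 and 17.8 in dd-2. PIE1 (AT3G12810), the ATPase of the complex and the longest regulator transcript, stood at 4.34 and 5.76 in Col-0, 6.56 and 5.65 in dek3-2, 4.34 and 6.96 in dek4-2 and 6.67 and 6.83 in dd-2. Its dd-2 difference of 0.37 was the highest of the 42 members as deposited, with a wide interval of -0.09 to 0.82 (adjusted p = 0.342). With the length trend removed it was 0.18, below HUB1 at 0.31 and FIE at 0.29. The Col-0 and dek4-2 replicates of PIE1 lay far apart.

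SEF (AT5G37055, chromosome 5, 14641551 to 14642440), the small zinc-finger subunit also known as SWC6, stood at 9.92 and 9.64 FPKM in Col-0, 10.1 and 8.41 in dek3-2, 7.69 and 8.53 in dek4-2 and 10.8 and 8.95 in dd-2. Both dek4-2 libraries were below both Col-0 libraries, while dd-2 overlapped Col-0. The dek4-2 difference was -0.24 (SE 0.126, 95% interval -0.53 to 0.04, adjusted p = 1, with a range of 0.998 to 1 over the alternatives). ARP6 lies on a locus merged with a gene of the opposite strand.

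H2B ubiquitination and the histone chaperone FACT help polymerase through nucleosomes. In this class all 5 fitted differences from Col-0 were above 0 in each mutant, as were 65.9%, 64.7% and 51.1% of those of all genes in dd-2, dek3-2 and dek4-2. Their medians were 0.25 in dd-2, 0.14 in dek3-2 and 0.11 in dek4-2, and none passed. With the length trend removed the dd-2 median was 0.20. All but SSRP1 have transcripts of 3 kb or more, a length at which all tested genes had a dd-2 median of 0.16. SSRP1 (AT3G28730, chromosome 3, merged locus 10784889 to 10790553), the HMG-box subunit of FACT, stood at 26.8 and 26.6 FPKM in Col-0, 30.1 and 28.7 in dek3-2, 30.96 and 30.35 in dek4-2 and 30.9 and 31.1 in dd-2. All 6 mutant libraries exceeded both Col-0 libraries, which was also so for FRL1 and FES1 and for 4.85% of all tested genes. The SSRP1 difference was 0.21 in dd-2 (SE 0.0675, 95% interval 0.05 to 0.36, adjusted p = 0.178), 0.13 in dek3-2 (95% interval -0.02 to 0.29, adjusted p = 1) and 0.19 in dek4-2 (95% interval 0.04 to 0.35, adjusted p = 1). SSRP1 had the smallest unadjusted p of the 42 members in each mutant, and over the alternatives its adjusted p in dd-2 ran from 0.121 to 0.478. The 3 differences of each gene in this class share the same 2 Col-0 libraries, so they are not separate observations. The SSRP1 locus is merged with AT3G28740 on the opposite strand.

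SPT16, the other FACT subunit, lay close to SSRP1, with an SSRP1 to SPT16 ratio of 0.994 to 1.20 over the 8 libraries. HUB1 (AT2G44950, chromosome 2, 18542213 to 18548591), an E3 ligase for H2B, stood at 9.44 and 10.04 FPKM in Col-0, 11.98 and 10.6 in dek3-2, 9.33 and 11.97 in dek4-2 and 12.7 and 12.8 in dd-2. Both dd-2 libraries were the highest of the 8, and dek4-2 overlapped Col-0. The dd-2 difference of 0.36 (SE 0.123, 95% interval 0.08 to 0.64) had an adjusted p of 0.193 and a range of 0.137 to 0.537 over the alternatives. Its partner HUB2 was 0.935 to 1.18 times HUB1, and the H2B deubiquitinase UBP26 stood at 9.23 and 11.4 FPKM in Col-0 and 12.2 and 12.6 in dd-2 (difference 0.25, adjusted p = 0.299).

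Genes of the FRI complex promote FLC where FRI is functional. SUF4, a zinc-finger protein that binds the FLC promoter, stood at 22.25 and 25.7 FPKM in Col-0, 25.2 and 22.9 in dek3-2, 21.3 and 26.3 in dek4-2 and 26.6 and 25.9 in dd-2. FRL1, a FRI paralog, stood at 4.72 and 4.92 in Col-0, 5.16 and 5.20 in dek3-2, 4.94 and 5.11 in dek4-2 and 4.95 and 5.20 in dd-2. Its 8 values lay within 1.103-fold, so the separation of Col-0 from the mutants was very small. FES1 (AT2G33835, chromosome 2, 14311787 to 14314700), a zinc-finger subunit, stood at 4.84 and 5.25 in Col-0, 6.06 and 5.73 in dek3-2, 5.54 and 5.29 in dek4-2 and 6.20 and 5.86 in dd-2. The FES1 difference was 0.22 in dd-2 (adjusted p = 0.309) and 0.19 in dek3-2 (SE 0.107, 95% interval -0.06 to 0.44, adjusted p = 1). FLX, a coiled-coil subunit, lay between 6.97 and 10.1 FPKM with overlapping groups.

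Promoters were read for what the members share in sequence. In the 250 bases before the annotated start (RefSeq TAIR10.1), the site II element, counted as TGGGCC or TGGGCT on either strand, was found in 14 of 43 regulators (32.6%) and in 22.9% of 18437 promoters. The telo-box AAACCCTA was found in 2 regulators, LD and FES1 (4.65%, against 3.59%), and an E2F motif, TTTCCCGC or TTTGGCGC, in none (against 0.965%). Both upstream windows below belong to members whose dd-2 libraries lay above both Col-0 libraries and overlap no other annotated gene. Capitals mark the site II element, which is present upstream of VEL1 on the complementary strand and for which these letters do not occur in the SSRP1 window. VEL1 is chr4:14790502-14790751 on the minus strand and SSRP1 is chr3:10784638-10784887 on the plus strand, both 5′ to 3′.
VEL1: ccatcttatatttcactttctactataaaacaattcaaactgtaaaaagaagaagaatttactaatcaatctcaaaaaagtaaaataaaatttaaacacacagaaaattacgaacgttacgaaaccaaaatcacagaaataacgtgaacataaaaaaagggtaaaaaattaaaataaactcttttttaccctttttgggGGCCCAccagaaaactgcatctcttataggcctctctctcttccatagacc
SSRP1: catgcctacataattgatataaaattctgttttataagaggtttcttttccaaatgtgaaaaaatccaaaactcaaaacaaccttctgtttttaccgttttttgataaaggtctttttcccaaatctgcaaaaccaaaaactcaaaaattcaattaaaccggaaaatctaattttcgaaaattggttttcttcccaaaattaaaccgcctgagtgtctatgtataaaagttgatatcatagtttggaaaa

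Most regulator values in dd-2 lay slightly above Col-0, and the size of this shift differed with transcript length and library scaling. The median difference of the 42 members was 0.16 in dd-2, 0.09 in dek3-2 and 0.03 in dek4-2, beside medians of 0.08, 0.04 and 0.00 over all tested genes. The members above 0 numbered 38 of 42 in dd-2 (65.9% of all genes), 36 in dek3-2 (64.7%) and 26 in dek4-2 (51.1%). In dd-2, 29 had both libraries above both Col-0 libraries (38% of all genes). Below Col-0 in both libraries were 2, VIP3 and VRN5 (15.3% of all genes). In dek3-2 the counts were 11 above and 1 below (20.9% and 10.1% of all genes), and in dek4-2 they were 3 and 2 (12% and 12.1%).

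Regulator transcripts are long, with a median of 2663 bp against 1728 bp for all tested genes, and 18 of 42 reach 3 kb against 11.3% of all. The 18 long members had a median dd-2 difference of 0.20 and the 24 shorter ones 0.09, beside 0.16 and 0.07 for all genes of those lengths. Of the 29 members lying above Col-0, 17 came from the 18 long ones, where 61.05% of all genes of that length lay above. With the trend with length removed in each library, the median of all members was 0.11, that of the long members 0.13 and that of the shorter ones 0.08. With that removal 39 of 42 members lay above 0, against 65.75% of all genes. Both dd-2 libraries then lay above Col-0 for 23 members and below for 2 (37.8% and 15.1% of all genes). With median-of-ratios scaling, which lowered the median of all genes in dd-2 from 0.08 to 0.01, the member median was 0.08. There, 30 of 42 members lay above 0, against 51.1% of all genes. In that scaling 16 members had both dd-2 libraries above Col-0 and 3 below (24.5% and 24.7% of all genes). The member median in dd-2 was 0.10 without Col-0 replicate 1, 0.21 without Col-0 replicate 2 and 0.14 without dd-2 replicate 2. In dek3-2 it was 0.03 without Col-0 replicate 1 or dek3-2 replicate 1. In dek4-2 it was -0.02 without Col-0 replicate 1, 0.07 without Col-0 replicate 2, 0.14 without dek4-2 replicate 1 and -0.06 without dek4-2 replicate 2. Without dek4-2 replicate 2, 8 of 42 members lay above 0 in place of 26, and 38.4% of all genes did in place of 51.1%.

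**Figure D4:**
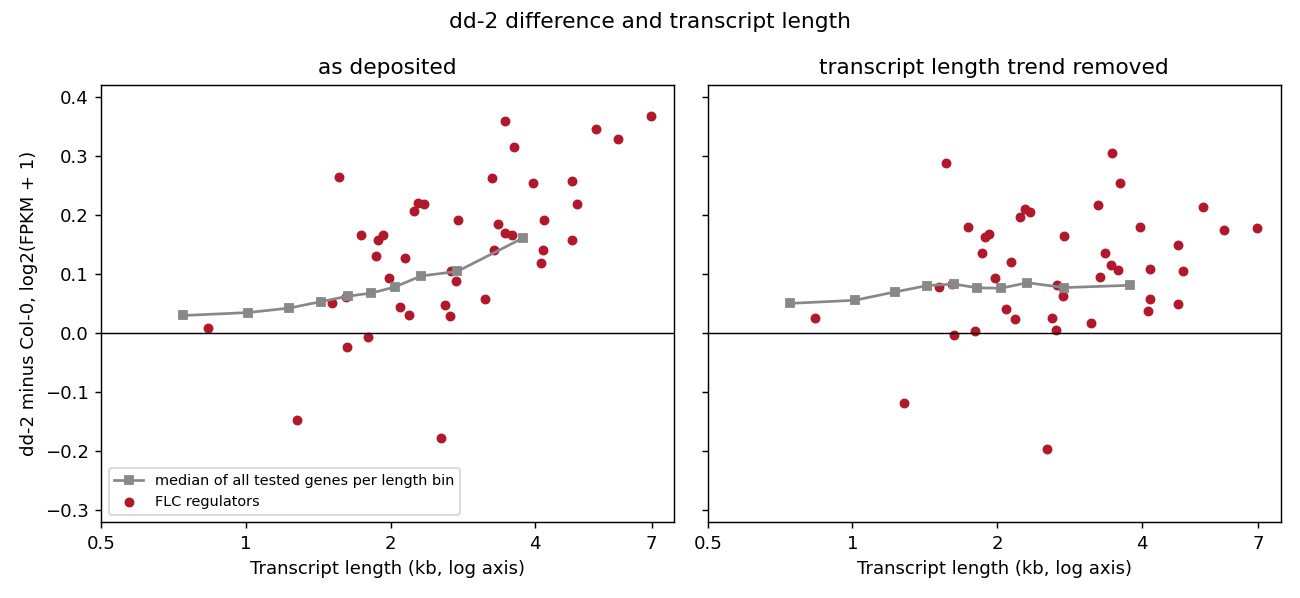
Difference between dd-2 and Col-0 in log2(FPKM + 1) against transcript length (kb, log axis) for the 42 regulators (red) and the median of all tested genes in 10 length bins (grey), as deposited and with the length trend of each library removed. As deposited, the grey median went from 0.03 in the shortest bin to 0.16 in the longest; with the trend removed it stayed between 0.05 and 0.09.

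Long members also moved further than the others between replicates of 1 genotype, upward in replicate 2 of Col-0 and dek4-2 and downward in that of dek3-2. The member medians of replicate 2 minus replicate 1 were 0.08 for Col-0, -0.10 for dek3-2, 0.17 for dek4-2 and 0.02 for dd-2. Those of the long members were 0.21, -0.16, 0.29 and 0.03, and those of the shorter members were 0.04, -0.07, 0.06 and 0.00, while all genes of 3 kb or more had 0.09, -0.12, 0.18 and 0.02. In dek4-2, 35 of 42 members were higher in replicate 2, and the gap of 0.17 within that genotype compares with 0.16 between dd-2 and Col-0. The sum of the root markers was also higher in dd-2, and 5 of 5 were detected (above 0 FPKM) in every library. They summed to 27.7 to 29.0 FPKM in dd-2, 13.6 to 20.95 in Col-0, 17.1 to 20.8 in dek3-2 and 12.7 to 15.5 in dek4-2. CASP1, CASP2 and PER64 had both dd-2 libraries above both Col-0 libraries. COBL9 (1.31 and 1.75 FPKM in dd-2, 1.55 and 0.93 in Col-0) and EXPA7 (5.42 and 6.79 in dd-2, 5.68 and 2.88 in Col-0) overlapped Col-0. Shoot markers (3 of 3 detected) summed to 10850 to 11250 FPKM in dd-2 and 13290 to 15250 in Col-0, a sum made almost wholly by RBCS1A. The other 2 shoot markers lay the other way. CAB3 stood at 73.8 and 94.1 FPKM in dd-2 against 64.4 and 52.0 in Col-0, and LHCB2.1 at 25.7 and 30.7 against 23.8 and 25.2. Dividing-cell markers (4 of 4 detected) summed to 22.5 to 31.1 in dd-2 and 23.3 to 24.9 in Col-0. The part of tissue makeup in the regulator values was not tested.

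A further 41 genes of the same pathways that are not among the 43 were counted as a list, including the demethylases LDL1 and LDL2, the cap-binding genes, WDR5A, EMF1, RING1A, VAL1, VAL2, UBC1, UBC2 and FRI. Of these, 37 reached a mean of 1 FPKM, while MEA, FIS2, VEL2 and VEL3 did not. None of the 37 passed in any mutant against Col-0 in limma, and 3, 1 and 0 had an unadjusted p under 0.05 in dd-2, dek3-2 and dek4-2 (8.11%, 2.70% and 0%, against 18.6%, 3.44% and 1.97% of all genes). Their median differences were 0.10, 0.07 and 0.03. CBP20, a subunit of the nuclear cap-binding complex, had the smallest p in dd-2, at a difference of 0.25 (adjusted p = 0.197). MSI5, a paralog of FVE, had the smallest in dek3-2 (0.33, adjusted p = 1) and in dek4-2 (0.24, adjusted p = 1). One list entry, AT5G59710, bears the name VIP2 but encodes a NOT2-type protein and not a PAF1 subunit.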

How the data were processed

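The deposited files hold FPKM per gene for 8 libraries, per the file headers, with 1 file a library. HISAT2, featureCounts, edgeR and the build TAIR10 are named in the submitters' processing notes without versions; the program that wrote the FPKM is not given in the sources used here. The kit was directional per the labels' protocols, but use of strand in counting is not stated, so 7 members on loci merged with an opposite-strand neighbour (FPA, VIP3, FIE, MSI1, VIN3, SSRP1, ARP6) are uncertain. Locus starts were counted from 0 in the files and 1 was added.

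The 19017 genes averaging 1 FPKM or more over the libraries entered limma 3.58.1 (R 4.3.3) on the log2(FPKM + 1) scale (variance trend, robust estimation, all 8 libraries in 1 fit with a mean per genotype) in 7 comparisons, adjusted by Benjamini-Hochberg over all genes tested. Fold changes on this scale understate low genes. The model was tested on simulated data with independent noise in each gene and library. These data held no shift between replicates, so the test does not cover the replicate shifts above. Transcript length and promoters came from RefSeq TAIR10.1, which held 32813 of the 33557 genes. The files give no counts. Low values fell within 0.15 of a whole fragment in 99.7 to 99.8% of cases (30% by chance at a fixed setting). The scale and length correction of each library were searched to make that share highest. This search placed 1 FPKM on 1 kb at 24.15 to 33.9 fragments. These steps give counting error alone, and counts were not tested.

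Members and lists were chosen with earlier results of these data known. Full statistics were given to the 3 members with the smallest p in each mutant, 8 values to these and to the highest and lowest member of each class; other members with values were chosen after their values were seen. Alternatives were median-of-ratios scaling, no filter, a pseudocount of 0.1, a replicate block, no variance trend, no organelle genes, only the compared groups and leaving out each library. Removal of length and GC trends (splines of 5 degrees of freedom) was chosen after seeing the data. Figures used matplotlib 3.10.9 in Python 3.11.15.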

Additional observations from a re-analysis of the deposited data

How the results depend on the processing

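No member was called in any of the 7 comparisons under any alternative run for it (a fit on the compared groups alone was not made for the interaction), and no pathway gene was called in the 3 comparisons with Col-0 under any alternative. The dd-2 median difference of the members ran from 0.08 (median-of-ratios scaling) to 0.18 (without organelle genes), and from 0.10 to 0.21 with 1 library left out. That of dek3-2 ran from 0.05 to 0.10 and from 0.03 to 0.12, and that of dek4-2 from 0.02 to 0.05 and from -0.06 (without dek4-2 replicate 2) to 0.14 (without dek4-2 replicate 1). Intervals inside 1.5-fold numbered 33 to 40 in dd-2, 39 to 42 in dek3-2 and 38 to 42 in dek4-2, and 24 to 37, 31 to 42 and 36 to 41 with 1 library left out, the lowest dd-2 count without Col-0 replicate 2. Members at an unadjusted p under 0.05 in dd-2 numbered 0 without dd-2 replicate 2, 1 without Col-0 replicate 1 and 8 without Col-0 replicate 2 or either dek4-2 library, against 4.

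The labels do not say what a shared replicate number stands for. Deviations of same-numbered libraries correlated between genotypes with r from -0.07 to 0.23, and the main fit did not use the numbers as pairs. Whether a number stands for a batch was not tested. The chloroplast share of FPKM was 1.19 to 1.43% in the libraries numbered 1 and 1.79 to 1.87% in those numbered 2. With the replicate block the count of members called was 0 in all 7 comparisons, while over all genes the dd-2 calls numbered 210 higher and 95 lower in place of 27 and 21. Depth was lowest in dd-2 replicate 2, at 24.15 fragments for 1 FPKM on 1 kb.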
